A study of Mus musculus with 12 samples.

Results

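The laminin and integrin genes of the anterior prostate were compared between APT121 and wild type males. Members were all genes whose symbol starts with Lam followed by a, b or c and a digit, with Itga, or with Itgb and a digit. Of 19935 genes measured by a transcript cluster (the probe set of 1 gene on this array) with a single gene symbol, 40 met the rule. They are 10 laminin chain genes, 27 integrin subunit genes and 3 genes, Itgb1bp1, Itgb1bp2 and Itgb3bp, that carry an integrin name and encode other proteins. Members were sorted by the cells best known to make them into 10 epithelial, 13 stromal, 9 leukocyte and 5 broadly expressed genes, with the 3 others apart. The platelet subunit Itga2b was placed in the stromal class.

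Each array held RNA of 2 mice, mixed in equal amounts, so a replicate is a pool. The 4 APT121 arrays stand for 8 mice and the 8 wild type arrays for 16. APT121 mice express T121, a piece of the SV40 large T antigen that blocks the pRb family, from the probasin promoter, active in luminal prostate epithelium, and their samples are labelled as prostatic intraepithelial neoplasia (PIN). The wild type samples are labelled normal, and both groups are males of the same mixed C57BL/6J and DBA/2 stock (B6D2F3), on AIN93G diet from 3 weeks and killed at 12 weeks. RNA came from the lobe as a whole, with no separation of lesion, epithelium and stroma.

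Laminins are secreted trimers of an alpha, a beta and a gamma chain that polymerise into the basement membrane, the sheet on which epithelium, smooth muscle and vessels rest. Integrins are receptors of an alpha and a beta subunit that bind laminins, collagens, fibronectin or cell surface ligands and tie them to the actin cytoskeleton or, for the Itga6 and Itgb4 pair, to keratin filaments at hemidesmosomes. In prostate, basal cells sit on the basement membrane and carry the hemidesmosomes. Partners of the alpha v subunit (Itgav) include Itgb6 and Itgb8, which are known for activating latent TGF-beta, and leukocytes use the Itgb2 and Itgb7 families.

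APT121 prostate had more transcript of several epithelial integrins and of one set of laminin chains, and less of another set. Itgb8 was 5.41-fold and Itgb6 4.94-fold higher, and Itga2, Itga3, Itgb4 and Lama5 rose between 2.67-fold and 3.30-fold. Lama3 was 3.60-fold lower. Among members classed as stromal, 8 of 13 fell, led by Lama2, Itga7 and Itga8, where 30.0% of all genes fell. Itgb5, in this class but made by many epithelial cells too, rose 2.29-fold. Leukocyte members moved little, with 3 of 9 higher by at most 1.40-fold and 1 lower, where 22.8% of all genes rose.

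Of the 40 members, 15 rose and 13 fell at an adjusted p of 0.05 by limma (a linear model fitted over all genes with Benjamini-Hochberg adjustment), and 12 did not pass. Over all genes 22.8% rose and 30.0% fell, 52.8% in all, so passing was itself common in this comparison. The median difference of the members was -0.07 on the log2 scale, against -0.09 for all genes. The 4 APT121 values lay above all 8 wild type values for 14 members and below them for 9, 23 in all, where 17.7%, 16.9% and 34.6% of all genes did so. Of the members that passed, 8 were at least 2-fold higher and 1 at least 2-fold lower, against 5.73% and 1.95% of all genes. By class, 7 epithelial genes rose and 3 fell with a median difference of 1.42, and 1 stromal gene rose and 8 fell with a median of -0.28. Medians were 0.13 for leukocyte and 0.31 for broadly expressed genes, and in each of these classes 3 genes rose and 1 fell. Levels below are log2 of the deposited intensity, differences are APT121 less wild type in log2 units ± SE, and SD are over 4 APT121 or 8 wild type arrays. A probe set's level depends on its probes, so levels are compared between arrays and not between genes.

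**Figure D1:**
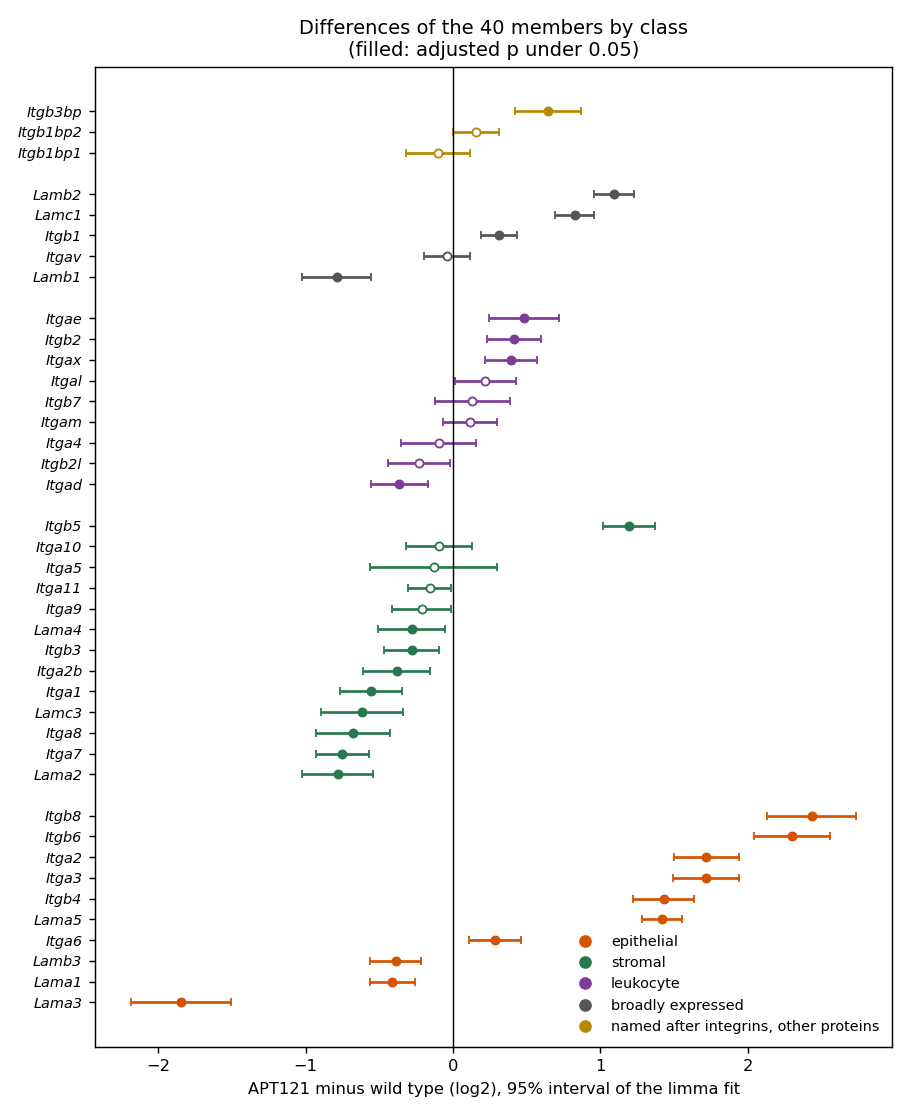
Log2 difference of each of the 40 members, APT121 less wild type (horizontal axis), with its 95% interval from the limma fit, grouped and coloured by class. Filled points passed an adjusted p of 0.05 (15 higher, 13 lower) and open points did not (12). Epithelial genes span -1.85 to 2.43, and stromal genes other than Itgb5 lie below 0.

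The arrays were alike in scale, with medians from 32.1 to 33.7 on the linear scale, and arrays of the same genotype correlated at 0.990 or more across genes. Transcripts of the seminal vesicle, which lies against this lobe, were uneven. The summed intensity of 7 seminal vesicle genes was 1556 in APT121 array 1, 11210 to 17970 in the other 3 APT121 arrays, 15870 in wild type array 6 and 93.6 to 188.1 in the other 7 wild type arrays. The genes were not alike in this. Svs2, Svs5 and Pate4 rose in APT121 and were high in wild type array 6 too, whereas Svs1, Svs3a and Svs6 were high in wild type array 6 (6.96, 6.45 and 5.86) and not in APT121 array 2 (3.67, 2.31 and 2.67). Svs4, which did not pass, was at 9.955 in wild type array 6, 5.12 to 8.27 in APT121 arrays and 3.48 to 5.37 in the other wild type arrays. In wild type array 6, 33 of the 40 members lay within the range of the other 7 wild type arrays, and without it 15 members were higher and 12 lower (the call of Lama4 was lost). Among luminal markers 4 of 7 measured rose and 2 fell, and their summed intensity was 14630 to 15450 in APT121 and 11860 to 13760 in wild type arrays. All 9 smooth muscle and all 8 fibroblast markers fell, and so did 7 of 8 endothelial and 5 of 7 basal markers (1 basal marker rose), while all 9 myeloid markers rose. Over all genes 30.0% fell and 22.8% rose. In RNA of a whole lobe, fewer cells of a type and less RNA per cell cannot be told apart.

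The alpha chains, which give a laminin its receptor binding, moved in opposite directions. Lama5, the alpha chain of most adult epithelial and vascular basement membranes, stood at 9.24, 9.20, 9.08 and 9.23 in APT121 arrays 1 to 4, and wild type arrays ran from 7.65 through a median of 7.75 to 7.88. The groups were far apart and each was tight (SD 0.08 and 0.09). The rise was 2.67-fold (1.42 ± 0.07, adjusted p = 3.84e-11, limma), the smallest adjusted p of all members. Lama3, the alpha chain of the epithelial laminin that anchors hemidesmosomes, stood at 4.86, 4.78, 5.20 and 4.84 in APT121 and at 6.32 to 7.21 in wild type arrays, with a median of 6.84. All APT121 arrays were lower, and its wild type SD (0.35) was the widest among the laminins. Lama3 differed by -1.85 ± 0.16 (adjusted p = 7.69e-08, limma). Wild type arrays 1 to 4 averaged 7.05 and arrays 5 to 8 averaged 6.48 for Lama3, without overlap, and against each of these sets alone the difference was -2.13 and -1.56. The change in Lama5 relative to Lama3 within an array was 3.26 on the log2 scale, from 2.87 to 3.41 in APT121 arrays around a wild type mean set to 0, whose arrays lay between -0.49 and 0.53.

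Lama2, the alpha chain of muscle and nerve basement membranes, was at 6.70, 6.60, 6.74 and 6.14 in APT121 arrays and at 7.11 to 7.63 in wild type arrays (median 7.35). The groups did not overlap, and APT121 array 4 was the lowest of all 12. The fall was 1.72-fold (-0.78 ± 0.11, adjusted p = 2.67e-05, limma). Lama4, a chain of vessel and smooth muscle basement membranes, was at 6.71, 6.77, 6.93 and 6.24 in APT121 and at 6.74 to 7.09 in wild type arrays. The groups overlapped, and the difference (-0.28 ± 0.11, adjusted p = 0.0381, limma) rested on APT121 array 4, without which it was -0.14 (adjusted p = 0.192). Its call was also lost without APT121 array 1 (adjusted p = 0.0609) and without any one of wild type arrays 5 to 8 (adjusted p from 0.0528 to 0.0624). Lama1, a chain of embryonic and some epithelial basement membranes, was at 4.76, 4.82, 4.77 and 4.57 in APT121 and at 4.97 to 5.33 in wild type arrays. It was dim, below the median gene in both groups, and fell by 0.41 on the log2 scale.

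The beta chains also parted. Lamb2 was at 9.78, 9.78, 9.61 and 9.86 in APT121 and at 8.59 to 8.76 in wild type arrays (median 8.67). Lamb1 was at 6.61, 6.81, 6.80 and 6.15 in APT121 and at 7.21 to 7.63 in wild type arrays (median 7.37). These chains take the same place in laminin trimers, Lamb1 early and widely and Lamb2 in mature basement membranes. Lamb2 rose 2.13-fold (1.09 ± 0.06, adjusted p = 5.90e-10, limma) and Lamb1 fell 1.73-fold (-0.79 ± 0.11, adjusted p = 1.79e-05, limma). Lamb2 relative to Lamb1 rose by 1.88 on the log2 scale, with APT121 arrays from 1.53 to 2.43 and wild type arrays within -0.16 to 0.16 of their mean. Lamb3, the beta chain that joins Lama3, was at 6.00, 5.78, 5.82 and 5.91 in APT121 and at 6.07 to 6.49 in wild type arrays (median 6.23). It fell by less than Lama3, 1.31-fold (-0.39 ± 0.08, adjusted p = 8.18e-04, limma), and the nearest arrays of the groups were 6.00 and 6.07. Wild type arrays 5 to 8 (mean 6.38) all lay above arrays 1 to 4 (mean 6.16) for Lamb3, opposite to Lama3.

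Of the gamma chains, Lamc1, which enters most laminins, was at 9.17, 9.29, 9.11 and 9.19 in APT121 and at 8.29 to 8.48 in wild type arrays (median 8.35). It rose 1.77-fold (0.83 ± 0.06, adjusted p = 1.57e-08, limma). Lamc3, a chain with a narrow range of tissues, was at 6.25, 5.89, 6.09 and 5.50 in APT121 and 6.28 to 6.86 in wild type arrays and fell by 0.62 ± 0.13 (adjusted p = 9.07e-04, limma). The chains Lama5, Lamb2 and Lamc1, which assemble into 1 known trimer, were thus the 3 laminin genes that rose, and the other 7 fell. Arrays measure each transcript and not the assembled protein.

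**Figure D2:**
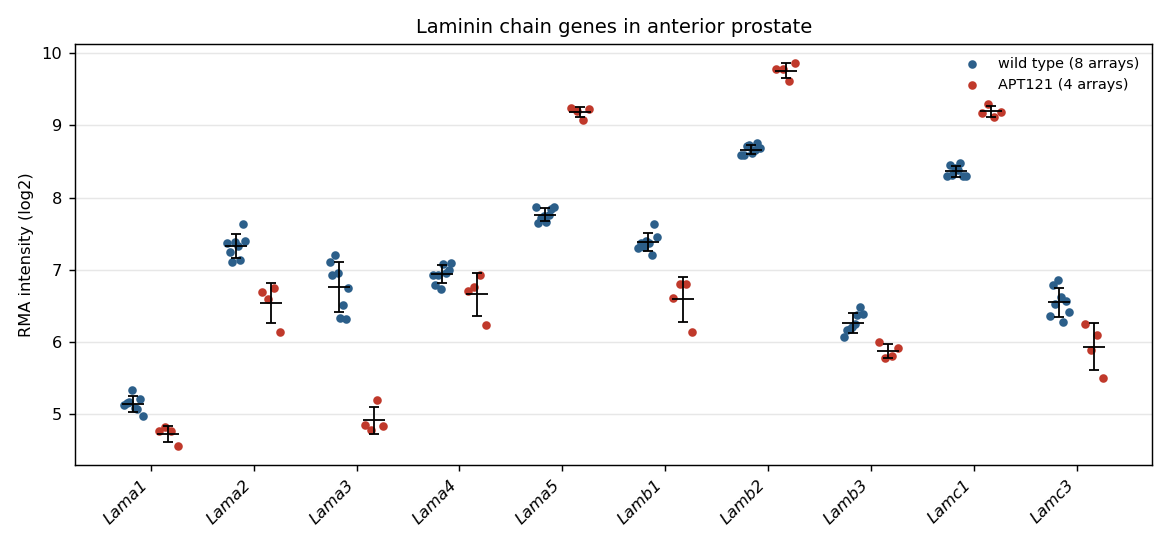
Log2 RMA intensity (vertical axis) of the 10 laminin chain genes in each array, wild type in blue (8) and APT121 in red (4), with black bars for the mean ± SD of a group. Lama5, Lamb2 and Lamc1 are higher in every APT121 array, Lama4 overlaps between groups, and the other 6 are lower in every APT121 array.

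The promoters of Lama5, Lamb2 and Lamb1 are shown for reading beside these values, and that of Lama3 is not shown. The windows come from RefSeq on GRCm38.p6, 250 bases before to 50 bases after the start, 5′ to 3′ on the gene's strand. Of the 40 members 26 had an entry. Both strands were searched for the GC box GGGCGG, the E2F site forms TTTGGCGC and TTTCCCGC, the AP-1 site TGANTCA and the TATA box TATAAA, and capitals mark each match. The first is Lama5 at chr2:180225810-180226109 (minus strand), then Lamb2 at chr9:108479612-108479911 (plus) and Lamb1 at chr12:31265043-31265342 (plus).
Lama5: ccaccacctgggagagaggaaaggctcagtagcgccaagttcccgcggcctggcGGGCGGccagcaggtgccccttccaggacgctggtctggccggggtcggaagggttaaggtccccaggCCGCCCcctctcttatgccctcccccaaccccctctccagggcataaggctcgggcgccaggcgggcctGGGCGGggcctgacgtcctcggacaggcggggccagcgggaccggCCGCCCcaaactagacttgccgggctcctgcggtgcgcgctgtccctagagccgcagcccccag
Lamb2: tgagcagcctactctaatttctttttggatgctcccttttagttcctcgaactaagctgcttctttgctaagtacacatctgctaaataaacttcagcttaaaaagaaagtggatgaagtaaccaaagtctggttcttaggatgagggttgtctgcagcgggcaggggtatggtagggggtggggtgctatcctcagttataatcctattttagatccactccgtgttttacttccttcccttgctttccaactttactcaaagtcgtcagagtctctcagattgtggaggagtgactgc
Lamb1: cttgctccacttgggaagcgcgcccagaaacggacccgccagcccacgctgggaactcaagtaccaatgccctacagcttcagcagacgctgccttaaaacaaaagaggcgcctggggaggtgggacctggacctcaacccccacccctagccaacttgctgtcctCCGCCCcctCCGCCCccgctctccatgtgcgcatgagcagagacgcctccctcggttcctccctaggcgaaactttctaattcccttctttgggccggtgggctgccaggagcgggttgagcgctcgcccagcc
The Lama5 window is 72.7% G and C and holds 4 GC boxes. The Lamb1 window (63.7%) holds 2, and the Lamb2 window (44%) holds none. The GC box was found in 35.7% of all 32851 promoter entries and in 11 of the 26 members. The E2F forms, of interest because E2F factors act below the pRb family, were found in 1.56% of all entries and in 0 of the 26 member windows, the AP-1 site in 7.81% and in 2 members (Itga9 and Itgax), and the TATA box in 13.6% and in 0 members. These counts describe letters in a window and say nothing of binding.

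Integrins that bind laminin and collagen on epithelial cells rose. Itga3, whose pair with Itgb1 binds the Lama5 and Lama3 laminins, was at 10.08, 10.02, 9.56 and 10.12 in APT121 and at 8.05 to 8.44 in wild type arrays (median 8.24). It rose 3.29-fold (1.72 ± 0.11, adjusted p = 1.23e-09, limma), with no overlap and APT121 array 3 the lowest of its group. Itga2, the collagen receptor subunit of epithelium and platelets, was at 6.65, 6.41, 6.32 and 6.67 in APT121 and at 4.46 to 5.08 in wild type arrays (median 4.75). Its rise was 3.30-fold (1.72 ± 0.10, adjusted p = 9.60e-10, limma), from a wild type level below the median gene (5.38), where no detection call is at hand. Itgb1, the common partner of both, was at 10.30, 10.25, 10.26 and 10.34 in APT121 and at 9.88 to 10.06 in wild type arrays (median 9.95). It rose by a smaller but separate step, 1.24-fold (0.31 ± 0.06, adjusted p = 2.71e-04, limma). Itga3 relative to Itgb1 rose by 1.40 on the log2 scale.

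The hemidesmosome integrin subunits rose to different extents. Itgb4 was at 8.41, 8.29, 7.93 and 8.54 in APT121 and at 6.71 to 6.99 in wild type arrays (median 6.89), a rise of 2.70-fold (1.43 ± 0.10, adjusted p = 4.01e-09, limma). Itga6, its only known partner, was at 9.49, 9.63, 9.58 and 9.51 in APT121 and at 9.10 to 9.53 in wild type arrays (median 9.21). These groups overlapped through wild type array 4 alone (9.53), and the difference of 0.29 ± 0.08 (adjusted p = 0.00818, limma) did not pass when wild type arrays 1 to 4 were the only controls (0.20, adjusted p = 0.0923). Itga6 also pairs with Itgb1. Itgb4 relative to Itga6 rose by 1.14 on the log2 scale, and the groups did not overlap in this ratio. Galk1 overlaps Itgb4 in RefSeq and was not among the genes measured, and the part of this overlap in the Itgb4 value was not tested.

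Among the partners of alpha v, Itgb8, Itgb6 and Itgb5 rose and Itgb3 fell, while alpha v itself did not pass. Itgb8 was at 8.95, 8.71, 8.34 and 8.92 in APT121 and at 5.76 to 6.58 in wild type arrays (median 6.38), the largest difference of all members (2.43 ± 0.14, adjusted p = 6.75e-10, limma). Itgb6, an epithelial subunit known to appear in injured or transformed epithelium, was at 6.63, 6.51, 6.00 and 6.68 in APT121 and at 3.87 to 4.42 in wild type arrays (median 4.19). It differed by 2.30 ± 0.12 (adjusted p = 1.96e-10, limma) from a wild type mean at the 30.7th percentile of all genes, so its fold is one of measured intensities. Itgb5, made by many epithelial and stromal cells, was at 9.67, 9.55, 9.29 and 9.73 in APT121 and at 8.15 to 8.46 in wild type arrays (median 8.40), and was the stromal-class gene that rose (1.19 ± 0.08, adjusted p = 5.59e-09, limma). In all 3, APT121 array 3 was the lowest of its group and still above every wild type array. Itgav was at 8.76, 8.76, 8.55 and 8.97 in APT121 and at 8.66 to 8.89 in wild type arrays (median 8.81), with a difference of -0.04 and a 95% interval from -0.20 to 0.12 (adjusted p = 0.663, limma). Within an array, Itgb8, Itgb6 and Itgb5 rose relative to Itgav by 2.48, 2.35 and 1.23, each without overlap. Itgb3, a partner of Itgav in vessels and of Itga2b in platelets, was at 4.78, 4.73, 4.88 and 4.61 in APT121 and at 4.79 to 5.25 in wild type arrays (median 5.03). These overlapped, and the fall (-0.28 ± 0.09, adjusted p = 0.0135, limma) no longer passed once APT121 array 4 was left out (-0.23, adjusted p = 0.0546), once wild type arrays 5, 6 and 7 were left out together (adjusted p = 0.0503), or with wild type arrays 1 to 4 as the only controls (adjusted p = 0.0787).

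**Figure D3:**
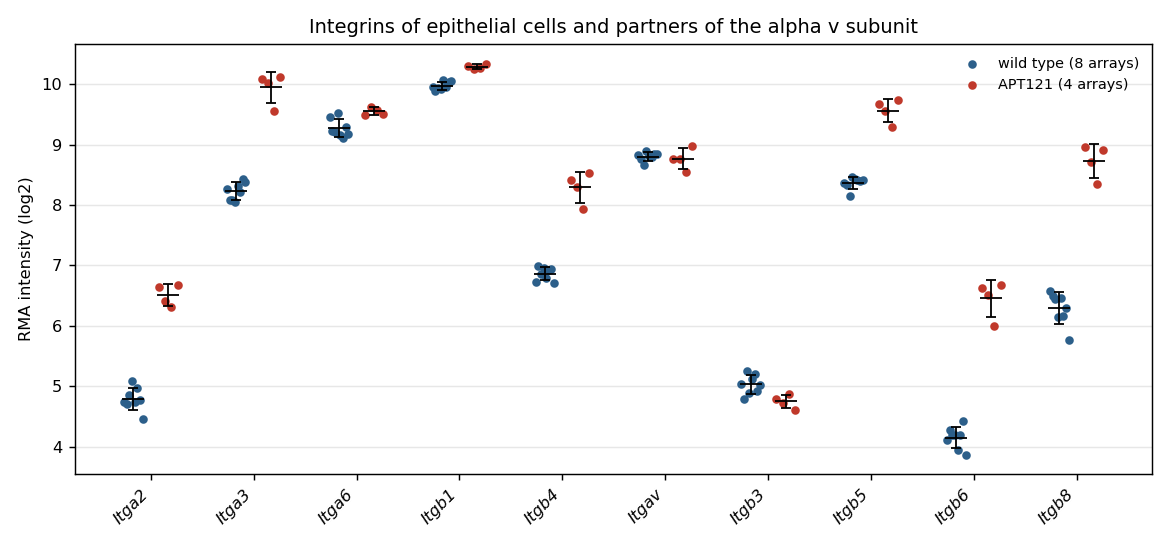
Log2 RMA intensity (vertical axis) of 10 integrin subunit genes in each array, wild type in blue (8) and APT121 in red (4), with black bars for the mean ± SD of a group. Itga2, Itga3, Itgb4, Itgb5, Itgb6 and Itgb8 separate widely, Itgb1 narrowly, and Itga6, Itgav and Itgb3 overlap.

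The promoters of the integrin genes with the largest rises follow in the same form, Itgb6 at chr2:60722554-60722853 (minus strand, the first of 2 entries) and Itgb8 at chr12:119238227-119238526 (minus strand). No letters are in capitals, since none of the motifs searched was found in either window.
Itgb6: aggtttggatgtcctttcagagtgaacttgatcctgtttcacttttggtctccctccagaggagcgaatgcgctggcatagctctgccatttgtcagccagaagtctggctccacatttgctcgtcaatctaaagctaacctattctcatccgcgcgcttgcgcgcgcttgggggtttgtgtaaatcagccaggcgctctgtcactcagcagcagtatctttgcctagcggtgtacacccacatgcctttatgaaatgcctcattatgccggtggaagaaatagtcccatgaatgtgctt
Itgb8: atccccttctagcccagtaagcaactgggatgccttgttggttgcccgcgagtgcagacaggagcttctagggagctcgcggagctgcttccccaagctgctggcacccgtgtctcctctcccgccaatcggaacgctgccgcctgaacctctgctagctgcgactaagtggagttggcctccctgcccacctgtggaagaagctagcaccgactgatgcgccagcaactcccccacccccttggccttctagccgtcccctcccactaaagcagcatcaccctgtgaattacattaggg
The Itgb8 window is 60.7% G and C and the Itgb6 window 50.3%.

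Of the 10 integrins classed as stromal 5 fell, 1 (Itgb5) rose and 4 did not pass, where 30.0% of all genes fell and 22.8% rose. Those that fell include Itga2b, a platelet subunit placed in this class. The calls of Itga2b and Itgb3 were lost in some subsets of the arrays. Itga7, a laminin receptor subunit of muscle, was at 5.49, 5.42, 5.37 and 5.36 in APT121 and at 5.89 to 6.37 in wild type arrays (median 6.16), a fall of 1.69-fold (-0.75 ± 0.08, adjusted p = 1.70e-06, limma). Itga8, a subunit of smooth muscle and mesenchyme that binds nephronectin, was at 4.93, 4.68, 4.93 and 4.85 in APT121 and at 5.15 to 5.89 in wild type arrays (median 5.48), and differed by -0.68 ± 0.12 (adjusted p = 1.60e-04, limma). Both groups were apart for each gene, and the Itga8 levels were near or below the median gene. Itga1, a collagen receptor subunit of smooth muscle, was at 7.30, 7.57, 7.45 and 7.17 in APT121 and 7.76 to 8.22 in wild type arrays (median 7.88) and fell by 0.56 on the log2 scale. In RefSeq the gene Pelo overlaps Itga1 and Mettl7b overlaps Itga7, and these differed by -0.58 and -0.30 in their own transcript clusters. The part of these overlaps, and of that of Itgad named with the leukocyte genes, was not tested. Itga2b, the platelet subunit, differed by -0.38 ± 0.11 (adjusted p = 0.00732, limma), overlapped between groups and just missed the threshold with wild type arrays 1 to 4 as the only controls (adjusted p = 0.0501). Of 3 measured platelet markers 1 fell (Pf4, -0.45) and 2 did not pass, and their part in the Itga2b value was not tested. Itga5 (-0.13), the fibronectin receptor subunit, Itga9 (-0.21), Itga10 (-0.10) and Itga11 (-0.16) did not pass. The 95% interval of Itga5 ran from -0.56 to 0.30, as its wild type arrays were spread from 6.00 to 7.34.

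The smooth muscle markers, all lower, had a median difference of -0.80 and summed intensities of 6822 to 9149 in APT121 and 11330 to 13120 in wild type arrays. The fibroblast markers had a median of -0.52 and sums of 1807 to 3079 against 3601 to 4264, and the endothelial markers, 7 of 8 lower, a median of -0.51 and sums of 377.6 to 400.9 against 534.3 to 647.6. The differences of the stromal genes Lama2 (-0.78), Itga7 (-0.75), Itga8 (-0.68), Lamc3 (-0.62) and Itga1 (-0.56), and of the broadly expressed Lamb1 (-0.79), were within the span of the smooth muscle marker differences, from -0.97 (Des) to -0.23 (Smtn). They were also within the fibroblast span, from -0.93 (Dcn) to -0.33 (Col1a1), and the endothelial span, from -1.06 (Emcn) to -0.08 (Esam). Of 6 skeletal muscle markers 3 fell (median -0.27). Of 4 measured nerve markers 2 fell (median -0.26), and of 5 measured adipose markers 5 fell (median -0.70). Over all genes 30.0% fell. The part of these markers in the stromal falls was not tested. No marker in these lists was at 0.

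Of the 9 leukocyte integrins 3 rose, 1 fell and 5 did not pass, mostly at low levels, beside 22.8% of all genes that rose. Itgb2, the beta subunit shared by the leukocyte-specific integrins, was at 5.47, 5.43, 5.84 and 5.40 in APT121 and at 4.90 to 5.25 in wild type arrays (median 5.14), a rise of 1.33-fold (0.41 ± 0.09, adjusted p = 8.90e-04, limma). Itgax, a subunit of dendritic cells and some macrophages, was at 4.39, 4.11, 4.37 and 4.12 against 3.65 to 4.06 (median 3.87) and rose by 0.39 ± 0.08 (adjusted p = 9.69e-04, limma). Itgae, the subunit by which intraepithelial lymphocytes bind E-cadherin, was at 4.33, 4.22, 4.30 and 4.52 against 3.50 to 4.21 (median 3.90) and rose by 0.48 ± 0.11 (adjusted p = 0.00195, limma). Haspin, a mitotic kinase gene that overlaps Itgae in RefSeq, differed by 0.57 ± 0.16 in its own cluster, and the part of this overlap in the Itgae value was not tested. Itgad, a leukocyte subunit of splenic macrophages, was at 4.17, 4.06, 4.07 and 4.33 against 4.31 to 4.79 (median 4.52) and fell by 0.36 on the log2 scale. Cox6a2, which overlaps Itgad in RefSeq, fell by 0.31 in its own cluster. The further cluster of Itgad differed by -0.33 (adjusted p = 0.0211, limma over all clusters with 1 symbol). Itga4, Itgal, Itgam, Itgb2l and Itgb7 did not pass, with differences from -0.23 (Itgb2l) to 0.22 (Itgal). Igsf5, which overlaps Itgb2l, differed by -0.35. The mean of 8 of the 9 leukocyte members was below the median gene in both groups.

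Beside these, the 9 myeloid markers all rose with a median of 0.70, and their summed intensity was 743.6 to 1539 in APT121 and 568.1 to 705.4 in wild type arrays. Of 8 measured lymphocyte markers 3 rose and 1 fell (sums 149.6 to 179.6 against 114.4 to 129.6). Over all genes 22.8% rose and 30.0% fell. The part of the myeloid and lymphocyte markers in the leukocyte integrin values was not tested.

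The APT121 arrays differed among themselves, and many but not all members of a class were lowest or highest in the same array. Such counts were not made over all genes. Array 3 was the lowest of the 4 for 6 of the 10 epithelial members (Itga2, Itga3, Itgb4, Itgb6, Itgb8 and Lama5) and the highest for 7 of the 13 stromal and 6 of the 9 leukocyte members. Array 4 was the lowest for 7 stromal members and the highest for 4 epithelial ones. Array 3 had the highest myeloid (1539), fibroblast (3079) and smooth muscle (9149) sums of the 4, and array 4 the lowest (743.6, 1807 and 6822). The luminal marker sum was lowest in array 4 (14630), close to it in arrays 1 (14690) and 3 (14700), and highest in array 2 (15450). Its genes were not alike. Cdh1 (10.911 and 11.255), Foxa1 (10.134 and 10.462) and Hoxb13 (9.202 and 9.326) were lowest in array 3 and highest in array 4. Cd24a (11.376 in array 3 and 10.854 in array 4) and Epcam (11.321 and 11.206) were lowest in array 4, and Krt8 and Krt18 in array 1. Leaving out array 3 kept the counts at 15 members higher and gave 14 lower, and leaving out array 4 gave 16 higher and 11 lower.

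Of the 3 genes that share only the name, Itgb3bp, which encodes a centromere protein, was at 3.31, 3.66, 3.14 and 3.02 in APT121 and at 2.47 to 2.81 in wild type arrays (median 2.65). It rose by 0.64 ± 0.10 (adjusted p = 8.02e-05, limma) from a wild type level at percentile 2.92 of all genes. Itgb1bp1 (-0.10), a regulator of Itgb1 activation, and Itgb1bp2 (0.16), a muscle protein, did not pass. Asap2, which overlaps Itgb1bp1 in RefSeq, rose by 2.20.

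Other genes of the basement membrane were mostly lower. Of 20 measured partners and laminin receptors outside the integrins, 3 rose and 12 fell (median -0.34), where 22.8% of all genes rose and 30.0% fell. Col4a6, a collagen IV chain of smooth muscle and some epithelial basement membranes, was at 5.94, 6.04, 6.49 and 5.49 in APT121 and at 8.50 to 8.95 in wild type arrays (median 8.83), 7.00-fold lower (-2.81 ± 0.14, adjusted p = 7.78e-11, limma). Its neighbour on the collagen IV locus, Col4a5, fell by 0.52 on the log2 scale, and the matrix protein Sparc by 0.76. The 3 that rose encode other laminin receptors or an integrin ligand. Npnt, which encodes nephronectin, the ligand of the Itga8 receptor, was at 8.65, 8.77, 8.40 and 8.79 in APT121 and at 5.20 to 5.54 in wild type arrays, 9.64-fold higher (3.27 ± 0.08, adjusted p = 6.23e-14, limma). Bcam, the Lutheran protein that binds Lama5, rose 2.66-fold (1.41 ± 0.10, adjusted p = 1.11e-08, limma), and the dystroglycan gene Dag1 by 0.47.

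The 6 other genes listed for the hemidesmosome, which include the filament keratins Krt5 and Krt14, mostly moved the opposite way to Itgb4. Of them 5 fell and 1, the linker gene Plec (0.46), rose, beside 30.0% of all genes that fell and 22.8% that rose. Krt5, the basal keratin, was at 6.73, 7.14, 7.37 and 6.19 in APT121 and at 7.93 to 8.46 in wild type arrays and fell 2.45-fold (-1.29 ± 0.17, adjusted p = 9.73e-06, limma). The linker Dst fell by 0.75, the transmembrane collagen Col17a1 by 0.66, Krt14 by 0.56 and the tetraspanin Cd151 by 0.50, each on the log2 scale. Of 7 basal markers, which hold Krt5 and Krt14 too, 5 fell and 1 rose, with sums of 349.7 to 508.8 in APT121 and 633.7 to 820.2 in wild type arrays. These values lie beside the falls of Lama3 and Lamb3, and the part of the basal cells in them was not tested.

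Of 25 measured integrin adaptor and focal adhesion genes, 10 rose and 8 fell (median 0.04), where 22.8% of all genes rose and 30.0% fell. Fermt1, the epithelial kindlin that activates integrins, was at 7.14, 7.17, 6.72 and 7.31 in APT121 and at 4.79 to 5.25 in wild type arrays and rose 4.25-fold (2.09 ± 0.11, adjusted p = 1.30e-10, limma), while Fermt2, its mesenchymal relative, fell by 0.33 on the log2 scale. The adhesion kinase gene Ptk2b rose by 1.28 ± 0.10 while the tensin gene Tns4 (adjusted p = 2.15e-06, limma) fell, as did Lims2, by 0.68. Of 15 other integrin ligands 3 rose and 5 fell (median -0.15), shares near those of all genes. Cdh1, the E-cadherin that Itgae binds, rose by 1.12 ± 0.07, Thbs1 by 0.90 and Tgfb1 by 0.60, while Tgfb3 fell by 0.77.

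**Figure D4:**
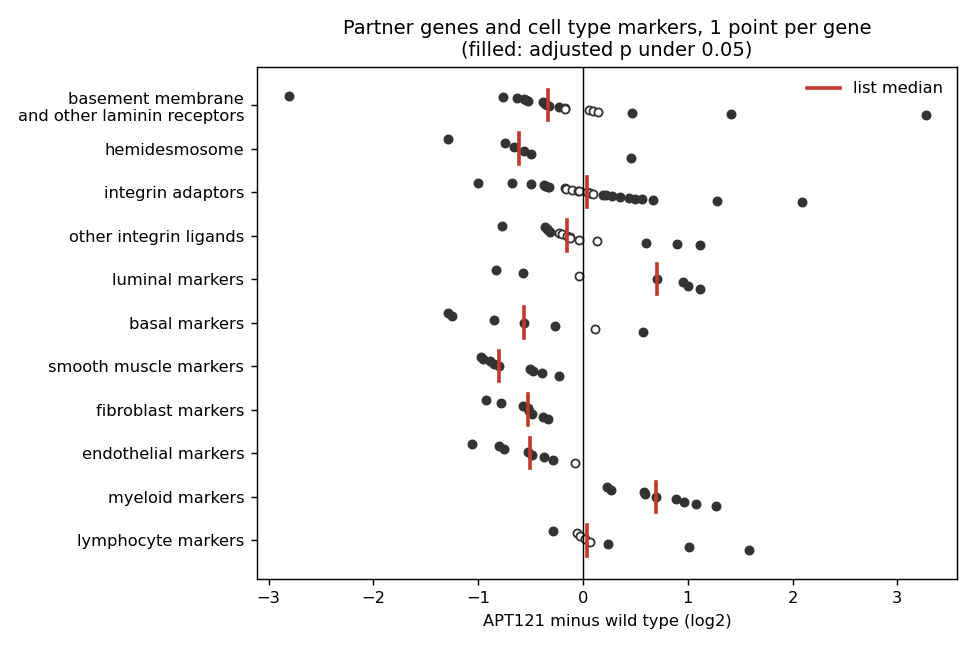
Log2 difference of each gene, APT121 less wild type (horizontal axis), for 4 lists of integrin and laminin partners and 7 lists of cell type markers, 1 point a gene, filled where the adjusted p was under 0.05, with the list median in red. Npnt (3.27) and Col4a6 (-2.81) are the extremes, smooth muscle and fibroblast markers are all lower and myeloid markers all higher.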

How the data were processed

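RNA of pooled anterior prostates was profiled on the Affymetrix Mouse Gene 1.0 ST platform, per the labels. The deposited value of a transcript cluster in an array is an intensity on the linear scale that the authors made with RMA, per the submitters' processing notes. For the RMA software and version, the sources used here give nothing. RMA ties the distributions of arrays together, so these values hold no measure of RNA amount per cell. Here log2 was taken. Of 28815 clusters, 21780 had 1 symbol, 1605 several and 5430 none, and only the first were used. For 998 genes with several clusters the one with the highest mean was used, which gave 19935 genes with no filter.

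The fit was made in R 4.3.3 by limma 3.58.1 (lmFit, eBayes, two-sided, 12 arrays, genotype as the only term). SAM, at 5%, is the method in the design text. It was an alternative here, as a statistic of that type with 100 permutations. The code was tested on simulated data. An exact permutation test over the 495 groupings of arrays can give no p below 0.00202. Arrays give no depth, and their number limits the precision. With 24 mice in 12 pools of 2, the spread is that between pools of different mice.

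Members and lists were chosen with earlier results of these data known. Full values were given for the up to 4 members per class with the largest differences past the threshold and for Lama3, Lamb3, Itga6, Itgb4, Itgb1, Itgav and Itgb2, and partners were named by the 4 largest such differences per list. Lama1, Lama4, Lama5, Lamc3, Itga1, Itga3 and Itgb3 were given in full, and Col4a5, Dag1, Cd151, Plec and Fermt2 named, after their values were seen. Alternatives were other scalings, filters on dim genes, limma options, subsets of arrays, the replicate block and a 1.5-fold minimum.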

Additional observations from a re-analysis of the deposited data

Results flagged for a closer look

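Of 80 groups of values tested for a single array far from the rest (40 members in 2 genotypes), 2 had one, where chance gives about 1 in 20 groups. For Itgb2, APT121 array 3 was at 5.84 and the next array at 5.47, and this array also had the highest myeloid marker sum of its group (1539). For Itgb5, wild type array 3 was at 8.15 and the nearest other wild type array at 8.32, while all APT121 arrays were at 9.29 or higher.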

How the results depend on the processing

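Of the 28 members called, 24 kept their direction and call under each alternative that tested them other than a 1.5-fold minimum, and none of the 28 changed direction. The exceptions were Lama4, Itga6, Itgb3 and Itga2b. The counts of 15 higher and 13 lower members ran from 15 to 16 and from 11 to 14 when 1 array was left out. Without wild type arrays 5, 6 and 7 together they were 15 and 12. A 1.5-fold minimum gave 10 higher and 6 lower members (4 lower stromal, 1 lower epithelial, 0 higher and 0 lower leukocyte), and for partner genes 3 lower basement membrane, 0 higher and 3 lower hemidesmosome, 3 higher and 2 lower adaptor and 1 lower ligand gene. Without the lower-expressed 50% of genes, which leaves 20 of the 40 members, 9 were higher and 8 lower (5 lower stromal, 0 leukocyte in either direction). Lower leukocyte members numbered 2 in place of 1 after median centring, with array weights, against wild type arrays 5 to 8 and by the SAM-type statistic, and 1 to 2 when 1 array was left out; Itgb2l was the added gene. Lower ligand genes numbered 8 after median centring and 9 by the SAM-type statistic, in place of 5. The SAM-type statistic called 17 members higher and 16 lower. Itga5, not called, differed by 0.048 against wild type arrays 5 to 8, and Itgav, not called, by -0.112 to 0.0299 when 1 array was left out, the latter without APT121 array 3. Replicate numbers 1 to 4 occur in both groups, but same-numbered arrays did not deviate together (correlations from -0.03 to 0.07), and with the replicate block 14 members were higher and 13 lower; Lama4 (adjusted p = 0.163) and Itga6 (adjusted p = 0.131) did not pass there and Itga9 (-0.30) did. The causes were not tested. Signal over background is unknown, so members below the median gene, 16 of 40 in both groups, have folds of uncertain size.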
